A study of Rattus with 18 samples.

Results

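Cathepsins, legumain and the lysosomal membrane protein Lamp1 were followed in rat glomeruli over the first 5 days of anti-Thy1 nephritis. The group holds 10 genes, taken by symbol from the non-control probes of the arrays: the cysteine endopeptidases Ctsb, Ctsk, Ctsl and Ctss, the cysteine exopeptidases Ctsc, Ctsh and Ctsz, the aspartic endopeptidase Ctsd, the asparaginyl endopeptidase Lgmn (legumain), and Lamp1. All 10 were on the arrays, and all 10 passed the filter on dim probes, among 23186 genes and transcripts tested. Each of the 10 was well above background on all 18 arrays, so that the members' values are measured levels and not bounds.

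Cathepsins are made as inactive precursors, sorted to the lysosome by the mannose 6-phosphate receptors, and activated there at acid pH. Inside the lysosome they degrade proteins taken up or turned over by the cell, and in antigen-presenting cells cathepsin S trims the invariant chain of MHC class II. Macrophages are rich in several of them, while proximal tubule cells, which take up filtered protein, use cathepsins B, D, H and L and legumain for its breakdown. Cathepsin K is best known as the collagenase of osteoclasts and is also made by fibroblast-like cells.

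The samples were glomeruli of SD (Sprague-Dawley) rats of 200 g. According to the labels, 30 rats were given anti-Thy1 antibody, which binds a surface antigen of mesangial cells in the rat, and 6 were given saline. The antibody groups are named by day 1, 2, 3, 4 or 5, and the saline group is named day 0, so the controls differ from the other groups in the injected agent as well as in the day. Each of the 6 groups had 3 one-colour arrays, named here by day and by the replicate number of the title. The labels do not tie an array to a rat, so the p-values measure the spread between arrays, which may in part be technical. The antibody lyses mesangial cells with complement, which then grow back, as background. In glomerular tissue measured in bulk, fewer cells of a type and less RNA per cell cannot be told apart. All comparisons with day 0 share the same 3 controls.

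The probes of 3 members are shown because they bear on how far a value can be read: the probe pair of Ctsl disagreed, and the probes of Ctsk and Ctsd carry the letters AATAAA, in capitals, the hexamer known from polyadenylation signals. The last 30 of the 60 bases of each probe are given as the files write them, 5′ to 3′, with positions on build rn4. Whether a position is exonic, or in a UTR, was not looked up.
Ctsl, brighter probe, chr17:6293891-6293950: gagttcatcttaaaactgaccaaacccgtc
Ctsl, other probe, chr17:6290718-6290777: gcctgatggattttgctttccagtacatta
Ctsk, chr2:190405601-190405660: ctttgcatttgaAATAAAgtatctcgttta
Ctsd, chr1:202619669-202619727: tatacaAATAAAgttgttttgggcctcttt
Of the 12 member probes, 2 held AATAAA and 0 held its reverse complement TTTATT. Among all 41012 probes, 4.26% held AATAAA and 3.38% held TTTATT. The Ctsz probe has no position in the files. The Ctsl probes are listed under the older symbol Ctsl1.

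A log2 level is the processed signal in log2 minus the 75th percentile of its array, so 0 stands for the signal of that percentile. The 75th percentile ran from 180.7 to 452.4 and was lowest in the 3 controls (180.7 to 229.2). The number of arrays, not a count of molecules, limits the precision. Podocyte markers (10 of 10) and proximal tubule markers (12 of 12) were well above background on all 18 arrays: RNA of tubule genes was present beside that of glomerular genes. The day 0 controls and day 1 replicate 1 shared a slide, and days 2 and 4 had a scan day of their own. The scan day and the group cannot be told apart for days 2 and 4 against day 0.

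Measured against day 0 in this scale, 9 of the 10 members rose on day 1, 5 on day 2, 2 on day 3, 7 on day 4 and 4 on day 5, and none fell on any day (limma, Benjamini-Hochberg adjusted p under 0.05 over all genes). The share of all genes and transcripts called higher was 19.2% on day 1, 20.8% on day 2, 21.7% on day 3, 25.6% on day 4 and 20.9% on day 5. The share called lower was 20.7%, 25.1%, 26%, 26.7% and 23.4% on the same days. The median change of the members was 0.75, 0.54, 0.40, 0.86 and 0.63 on days 1 to 5, and that of all genes lay between -0.02 and 0.06. Across the time course 6 members passed the F-test (Ctsd, Ctsh, Ctsk, Ctss, Ctsz and Lgmn, adjusted p 0.0032 to 0.038), against 53.1% of all genes. The values of a later day lay wholly above the controls for 8, 5, 3, 7 and 2 members on days 1 to 5, and for 24.9% to 28.8% of all genes.

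These counts rested on the scaling and on single arrays. With quantile normalization 1, 2, 2, 2 and 1 members were called higher on days 1 to 5. Of all 23186 genes, 4362, 5190, 5322, 5858 and 4810 were, against 4455, 4824, 5042, 5931 and 4845 before. The members' counts thus fell on days 1, 2, 4 and 5, while those of all genes stayed close. With the arrays scaled to 12 reference genes 1, 2, 2, 0 and 0 members were called higher. Of all genes, 1050, 1807, 2077, 1763 and 1109 were. Ctsk on day 1 and Ctsb on days 3 and 5 were then called lower. Scaled to the median, 9, 8, 5, 10 and 8 members were called higher, and 8255, 9060, 8790, 9743 and 9581 of all genes. Without control replicate 4 the members' counts were 2 on day 1, 1 on day 2, 3 on day 4 and 0 on day 5. On day 1 the count was 2 without replicate 1 and 3 without replicate 4 of that day, and on day 2 it was 2 without replicate 3 or 4. On day 5 it was 2 without control replicate 5 or without replicate 2 or 4 of that day.

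**Figure D1:**
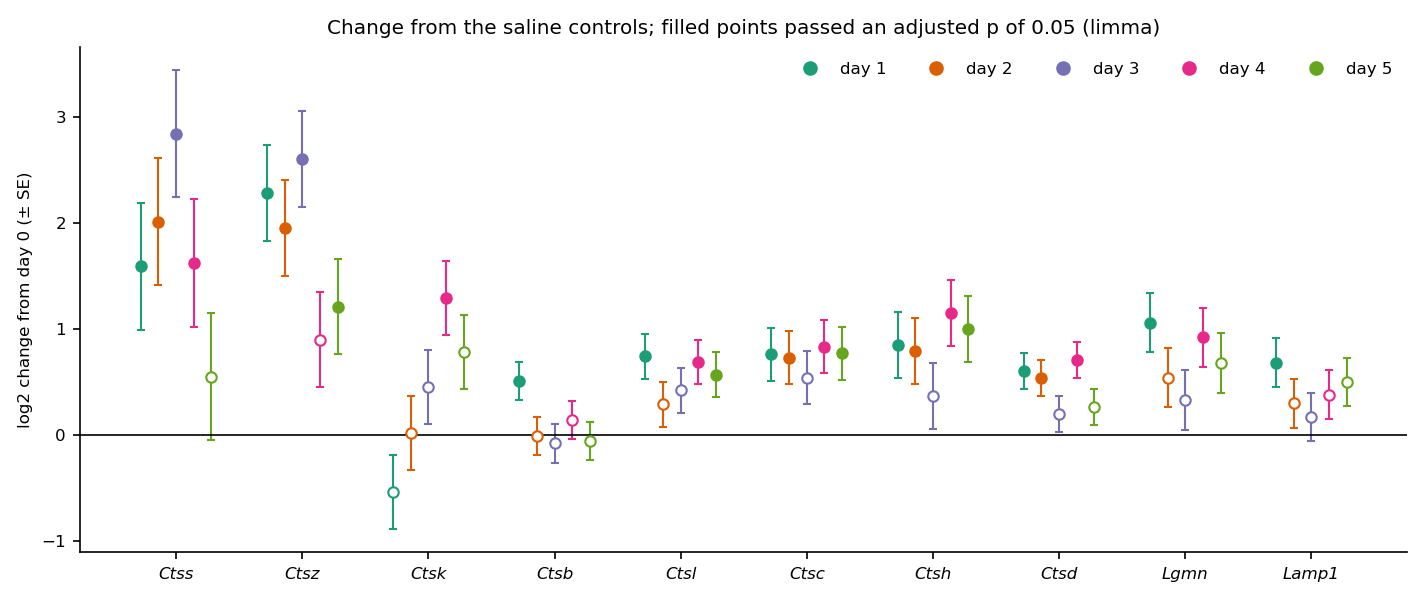
The log2 change from day 0 is plotted for each member on days 1 to 5, with bars for the standard error of the limma fit over 18 arrays; filled points passed an adjusted p of 0.05. Ctss and Ctsz reached 2.84 and 2.60 on day 3, Ctsk was highest on day 4 (1.29), and the other 7 members stayed between -0.08 and 1.15.

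Cathepsin S, the elastin-cleaving endopeptidase of antigen-presenting cells, rose on days 1 to 4 and most on day 3, where its change was the highest of any member in the 75th percentile scale; with quantile normalization that of Ctsz was higher (2.93 against 2.66). Its log2 level was 1.90, 1.06 and 0.96 in the controls, 2.74, 3.07 and 2.88 on day 1, and 3.32, 3.68 and 2.97 on day 2. It was 3.88, 4.05 and 4.51 on day 3, 1.90, 3.68 and 3.19 on day 4, and 1.17, 0.75 and 3.67 on day 5. Every array of days 1, 2 and 3 lay above every control, and day 3 stood highest. On day 4 replicate 1 lay at the level of the highest control, and on day 5 replicate 5 alone lay above the controls. The change was 1.59 ± 0.60 (SE) on day 1 (3-fold, adjusted p = 0.046), 2.01 on day 2 (4.04-fold, adjusted p = 0.013), 2.84 on day 3 (7.15-fold, adjusted p = 0.0019) and 1.62 on day 4 (3.07-fold, adjusted p = 0.033). The day 5 change of 0.55 did not pass (adjusted p = 0.46). In order of its means, Ctss ran from day 3 through days 2, 4, 1 and 5 to day 0, and the arrays of days 1, 2 and 4 overlapped. The other Ctss probe gave 1.60, 1.98, 2.85, 1.57 and 0.56 on days 1 to 5.

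The day 3 rise of Ctss passed without any 1 of the 6 arrays compared; with slide as a fixed block it was 2.42 (adjusted p = 0.21). The day 1 call ended without control replicate 4 or 5 or without any array of day 1 (adjusted p 0.075 to 0.14), the day 2 call without control replicate 4 or day 2 replicate 3 (0.052 and 0.054), and the day 4 call without 1 of control replicates 4 and 5 and day 4 replicates 2 and 3 (0.091 to 0.13). With quantile normalization the days 1 and 4 changes were 1.42 and 1.37 (adjusted p = 0.072 and 0.068), and scaled to reference genes 1.13 and 1.05 (adjusted p = 0.15 and 0.16).

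Cathepsin Z, also called cathepsin X, a carboxypeptidase of myeloid cells, rose on days 1, 2, 3 and 5. Its log2 level was -2.13, -2.58 and -2.55 in the controls, -0.13, -0.01 and -0.27 on day 1, and -0.35, -0.15 and -0.92 on day 2. It was 0.05, -0.11 and 0.59 on day 3, -2.52, -1.06 and -0.96 on day 4, and -1.78, -1.79 and -0.06 on day 5. Days 1, 2, 3 and 5 did not overlap the controls, whereas day 4 replicate 1 lay within their range. The change was 2.28 ± 0.45 (SE) on day 1 (4.87-fold, adjusted p = 0.0033), 1.95 on day 2 (3.86-fold, adjusted p = 0.0036) and 2.60 on day 3 (6.05-fold, adjusted p = 0.00074). It was 0.90 on day 4 (adjusted p = 0.10) and 1.21 on day 5 (2.31-fold, adjusted p = 0.04). The arrays of day 1 overlapped those of day 2 and those of day 3, whereas days 2 and 3 did not overlap (highest -0.15 against lowest -0.11).

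The calls of Ctsz on days 1, 2 and 3 passed without any 1 of the 6 arrays, and they passed with each of the 4 scalings; with slide as a fixed block the day 1 and day 3 changes were 2.29 and 2.40 (adjusted p = 0.072 and 0.11). The day 5 call ended when control replicate 4, control replicate 5 or day 5 replicate 5 was left out (0.63 without the last), and the day 4 change passed without day 4 replicate 1 (1.40, adjusted p = 0.014). The processed signal of Ctsz ran from 30.2 to 477. Its change on days 1, 2 and 3 was 1.28, 1.01 and 1.56 with a background correction (normexp) that adds an offset of 50. Local backgrounds over 1000 were first set to the array's median, a repair chosen after seeing the data. All values given here with the offset of 50 include this repair. With normexp as planned, without the repair, Ctsz did not pass on day 1 or day 2.

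The arrays on which Ctss and Ctsz were high were those on which macrophage markers were high. Of 25 listed markers 23 had a probe and 20 were tested, 16 of them well above background on all 3 controls, and 12, 15, 17, 5 and 2 of these rose on days 1 to 5, with none falling. Their mean log2 level ran from -1.44 to -0.40 in the controls, from 0.99 to 1.32 on day 1, from 0.79 to 1.65 on day 2 and from 1.71 to 2.08 on day 3. On day 4 it ran from -0.93 to 0.99, the lowest being replicate 1, and on day 5 from -0.91 to 1.56, the highest being replicate 5. Cd163, Marco and Ccr2 were not well above background on all arrays of any day. The deviation of each array from its day's mean gave r = 0.96 for Ctss and 0.95 for Ctsz with this marker mean (18 arrays). Over the 9 arrays of days 1, 2 and 3 alone, the levels themselves gave r = 0.92 and 0.84, with the differences between these days included. For the other 8 members the deviations from the day's mean gave r from -0.76 to 0.59 (18 arrays). These points share arrays and scaling, and the part of macrophage content in the changes was not tested.

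**Figure D2:**
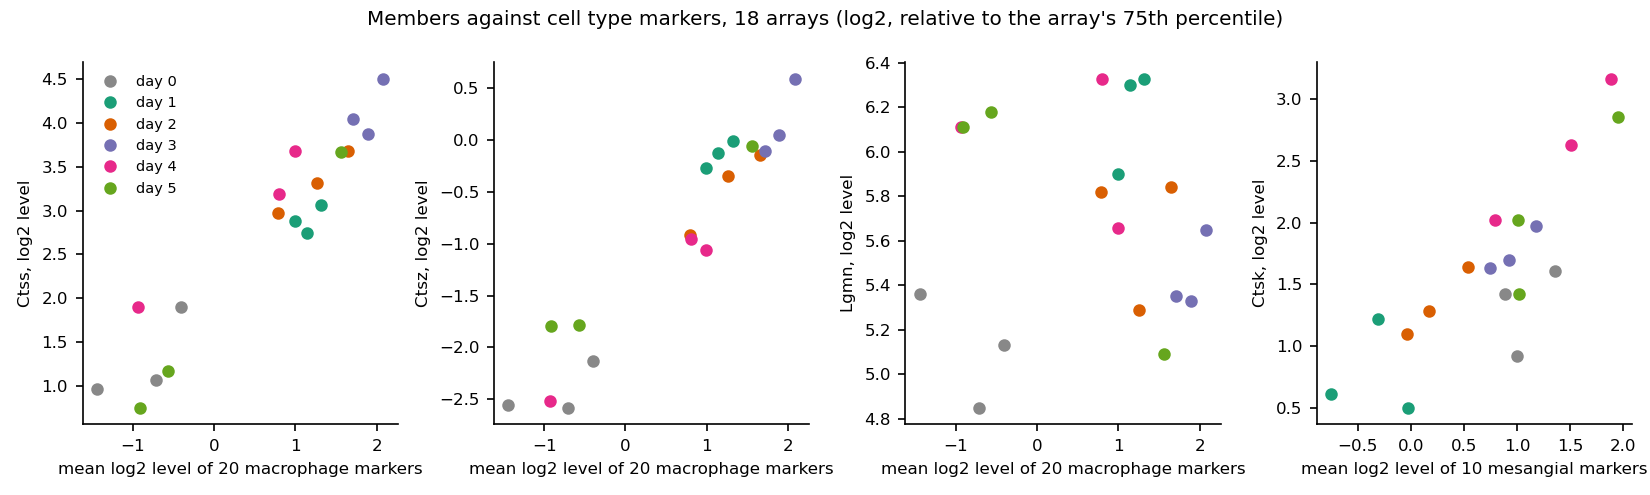
Log2 levels of Ctss, Ctsz and Lgmn on 18 arrays are plotted against the mean log2 level of 20 macrophage markers, and Ctsk against that of 10 mesangial markers; colours give the day. Ctss and Ctsz climb with the macrophage markers (r of within-day deviations 0.96 and 0.95), with 6 arrays (3 controls, day 4 replicate 1, day 5 replicates 2 and 4) apart from the other 12, while Lgmn does not (-0.58).

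Cathepsin K, the collagen-cleaving member, rose on day 4 only among the 5 days tested; whether day 4 differed from day 2 was tested too, and the difference of 1.27 did not pass (adjusted p = 0.16). Its log2 level was 1.61, 0.92 and 1.42 in the controls, 0.50, 0.61 and 1.22 on day 1, and 1.28, 1.10 and 1.64 on day 2. It was 1.97, 1.70 and 1.63 on day 3, 2.02, 3.17 and 2.63 on day 4, and 1.42, 2.02 and 2.86 on day 5. All arrays of days 3 and 4 lay above the controls, day 1 was the lowest by its mean and overlapped them, and day 5 spanned from within their range to well above. The change was -0.54 ± 0.35 (SE) on day 1 (adjusted p = 0.22), 0.02 on day 2, 0.45 on day 3 (adjusted p = 0.30), 1.29 on day 4 (2.44-fold, adjusted p = 0.0067) and 0.78 on day 5 (adjusted p = 0.078). The day 4 call passed without any 1 of the 6 arrays. Scaled to reference genes it was 0.72 and did not pass, and the day 5 change passed without day 5 replicate 2 (1.12, adjusted p = 0.024).

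Mesangial markers, the genes of the cells that the antibody binds, moved with Ctsk. All 10 were tested; 7 fell on day 1 and 4 on day 2, and on day 4 there were 2 that rose and 1 that fell. Their mean log2 level ran from 0.89 to 1.36 in the controls, from -0.75 to -0.03 on day 1, from -0.04 to 0.54 on day 2, from 0.75 to 1.18 on day 3, from 0.79 to 1.89 on day 4 and from 1.01 to 1.95 on day 5. Within-day deviations of Ctsk gave r = 0.78 with this mean, 0.78 with the mean of 5 mast cell genes and 0.59 with the macrophage markers (18 arrays). With the mesangial mean, Ctss gave 0.66 and Ctsz 0.60, while the remaining members gave -0.73 to -0.25. Of the 5 mast cell genes 1, 3, 3, 0 and 0 rose on days 1 to 5, and 2 fell on each day. The part of mesangial or mast cell RNA in the Ctsk change was not tested. The 3 genes most like Ctsk over the 18 arrays were Angpt2, an antagonist ligand of the Tie2 receptor (r = 0.95), Plac9 (0.934) and Tspan6 (0.926).

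**Figure D3:**
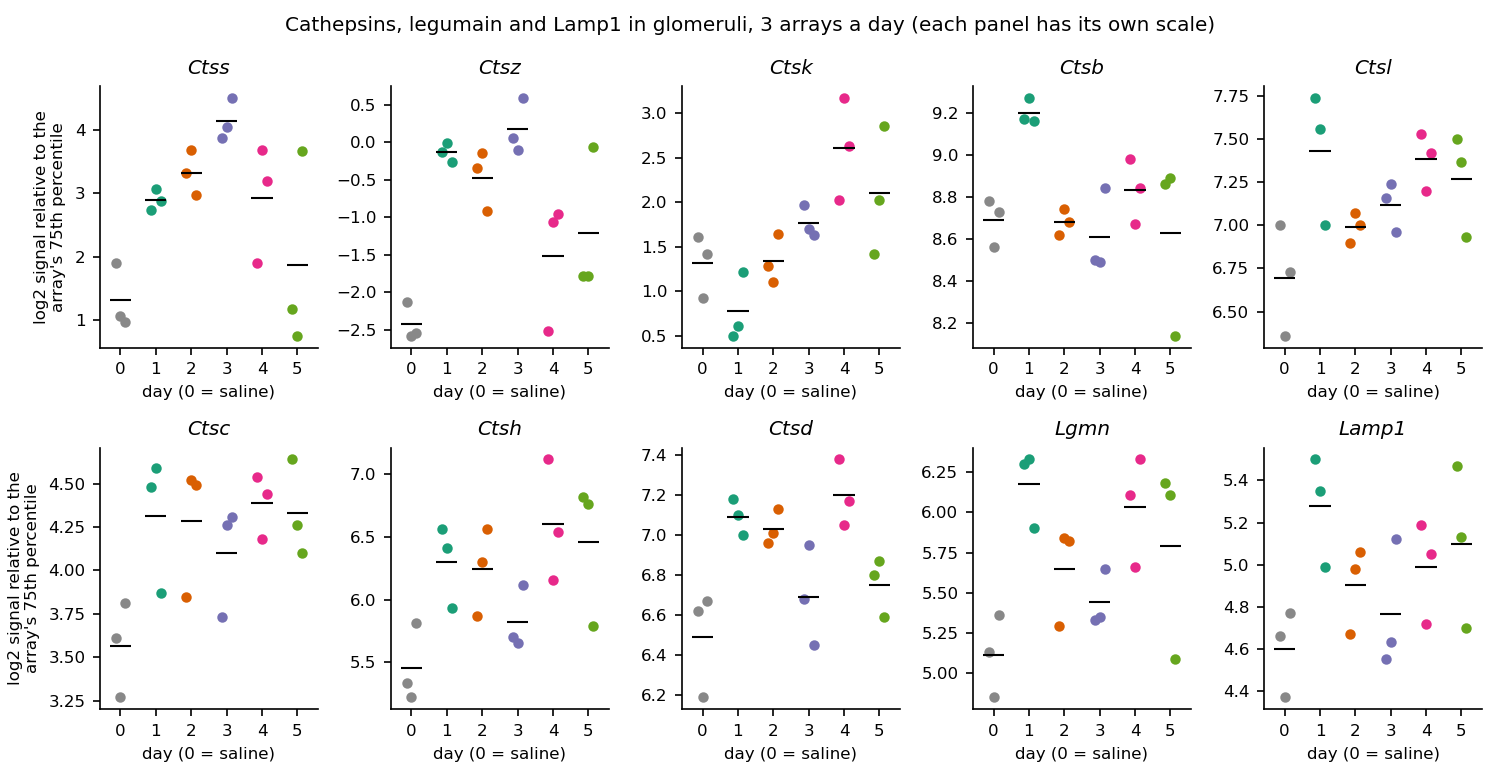
Log2 level of each member, relative to the array's 75th percentile, is plotted for 3 arrays a day with the mean as a line; each panel has its own scale. Ctss runs from 0.75 to 4.51, Ctsz from -2.58 to 0.59 and Ctsk from 0.50 to 3.17, and day 5 replicate 5 is the highest of its day in all 3 and the lowest in the other 7.

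The other 7 members changed by less and rose first on day 1. Cathepsin B, an endopeptidase and dipeptidyl carboxypeptidase found in most cells, was at 8.78, 8.56 and 8.73 in the controls and at 9.17, 9.27 and 9.16 on day 1. On the later days its arrays lay between 8.14 and 8.98. Day 1 lay wholly above the controls and above every later array. The rise on day 1 was 0.51 ± 0.18 (SE; 1.42-fold, adjusted p = 0.04), and the changes on days 2 to 5 were between -0.08 and 0.14. The day 1 call ended without control replicate 4 or 5 or any array of day 1 (adjusted p 0.059 to 0.12), and scaled to reference genes the day 1 change was 0.05.

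Cathepsin L, an endopeptidase of endosomes and lysosomes, gave different answers with its probe pair. The brighter probe read 7.0, 6.36 and 6.73 in the controls, 7.74, 7.56 and 7.0 on day 1, and 7.53, 7.20 and 7.42 on day 4. Day 4 lay above all controls, and day 1 replicate 5 reached only the highest of them. Its change was 0.74 ± 0.21 (SE) on day 1 (adjusted p = 0.016), 0.29 on day 2, 0.42 on day 3, 0.69 on day 4 (adjusted p = 0.015) and 0.57 on day 5 (adjusted p = 0.042). The other probe read 5.56, 6.53 and 5.44 in the controls, and its changes were 0.13, -0.41, -0.32, -0.01 and -0.05 on days 1 to 5, none past the threshold. Control replicate 4 was the lowest control with the brighter probe and the highest with the other. The day 1 call of the brighter probe ended without control replicate 4 or day 1 replicate 1 or 4 (adjusted p 0.063 to 0.079), the day 4 call without control replicate 4 or day 4 replicate 1 (0.052 and 0.075), and the day 5 call without 1 of control replicates 4 and 5 and day 5 replicates 2 and 4 (0.069 to 0.18).

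**Figure D4:**
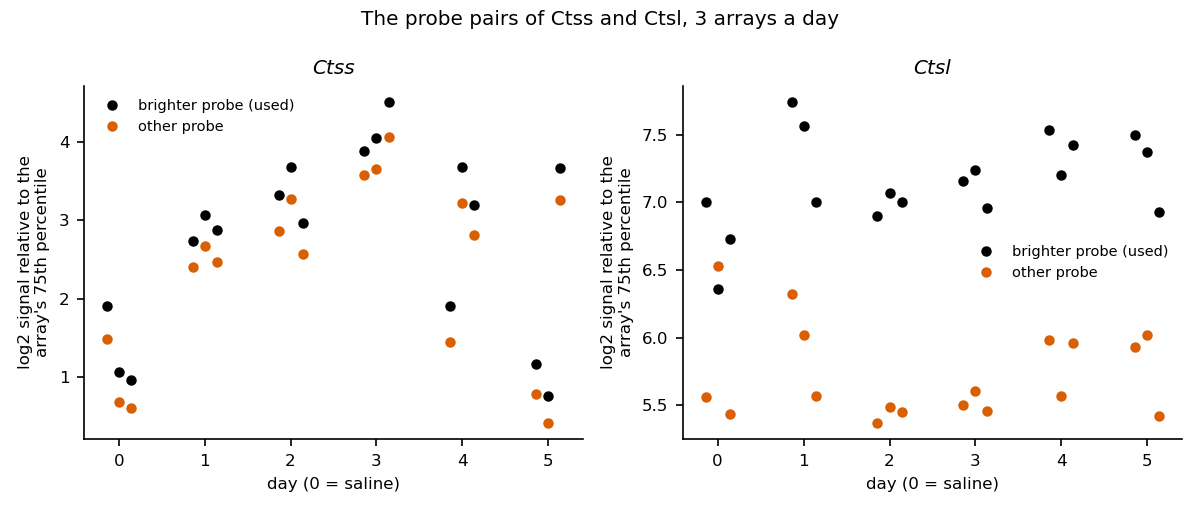
Log2 levels of the probe pairs of Ctss and Ctsl are plotted for 3 arrays a day, the brighter probe in black. The Ctss probes move together on every array, whereas for Ctsl the other probe has 1 control at 6.53 against 5.56 and 5.44.

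Cathepsin C, a dipeptidyl peptidase that activates the granule proteases of leukocytes, was at 3.61, 3.27 and 3.81 in the controls and at 4.54, 4.18 and 4.44 on day 4. Every array of days 1, 2, 4 and 5 lay above the highest control. It rose by 0.76 ± 0.25 (SE) on day 1 (adjusted p = 0.028), 0.73 on day 2 (adjusted p = 0.028), 0.83 on day 4 (adjusted p = 0.013) and 0.77 on day 5 (adjusted p = 0.022), with 0.54 on day 3 (adjusted p = 0.088). The calls on days 1, 2, 4 and 5 ended without control replicate 4, that on day 1 also without day 1 replicate 1 or 4, that on day 2 without day 2 replicate 3 or 4 and that on day 5 without day 5 replicate 2 (adjusted p 0.06 to 0.12), and day 3 passed without day 3 replicate 2 (adjusted p = 0.047). With quantile normalization the 5 changes were 0.21 to 0.44 and scaled to reference genes 0.09 to 0.34, none past the threshold.

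Cathepsin H, an aminopeptidase of lysosomes, was at 5.33, 5.22 and 5.81 in the controls, 6.56, 6.41 and 5.93 on day 1, 7.12, 6.16 and 6.54 on day 4 and 6.82, 6.76 and 5.79 on day 5. Days 1 and 4 lay above all controls, and on day 5 replicate 5 fell within their range. The change was 0.85 ± 0.31 (SE) on day 1 (adjusted p = 0.041), 0.79 on day 2 (adjusted p = 0.048), 1.15 on day 4 (2.23-fold, adjusted p = 0.0065) and 1.00 on day 5 (adjusted p = 0.017). The day 4 call passed without any 1 of the 6 arrays. The calls on days 1 and 2 ended without control replicate 2 or 4, without day 1 replicate 1 or 4 and without day 2 replicate 3 or 4 (adjusted p 0.087 to 0.16), and that on day 5 without control replicate 4 or day 5 replicate 2 or 4 (0.062 to 0.073). Scaled to reference genes the changes ran from -0.07 on day 3 to 0.59 on day 4 and none passed.

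Cathepsin D, the aspartic endopeptidase, was at 6.62, 6.19 and 6.67 in the controls, 7.18, 7.10 and 7.0 on day 1, 6.96, 7.01 and 7.13 on day 2 and 7.38, 7.05 and 7.17 on day 4. Days 1, 2 and 4 lay wholly above the controls, while days 3 and 5 overlapped them. It rose by 0.60 ± 0.17 (SE) on day 1 (adjusted p = 0.014), 0.54 on day 2 (adjusted p = 0.017) and 0.71 on day 4 (1.63-fold, adjusted p = 0.0031). The changes on days 3 and 5 were 0.20 and 0.26. The day 4 call passed without any 1 of the 6 arrays; the calls on days 1 and 2 ended without control replicate 4 and without day 1 replicate 1 or day 2 replicate 4 (adjusted p 0.052 to 0.076). With quantile normalization and with reference genes the changes on days 3 and 5 were below 0 (-0.16 and -0.21, -0.25 and -0.21), and none of the 5 days passed.

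Legumain, which cleaves after asparagine and processes several cathepsins, was at 5.13, 4.85 and 5.36 in the controls and at 6.30, 6.33 and 5.90 on day 1. It was at 6.11, 5.66 and 6.33 on day 4 and at 6.18, 6.11 and 5.09 on day 5. Days 1 and 4 lay wholly above the controls, and day 5 replicate 5 fell among them. Lgmn rose by 1.06 ± 0.28 (SE) on day 1 (2.09-fold, adjusted p = 0.0099) and 0.92 on day 4 (1.89-fold, adjusted p = 0.012). The changes of 0.54, 0.33 and 0.68 on days 2, 3 and 5 did not pass. The day 1 call passed without any 1 of the 6 arrays, the day 4 call ended without control replicate 4 or day 4 replicate 3 (adjusted p = 0.056 and 0.057), and day 5 passed without day 5 replicate 5 (1.04, adjusted p = 0.0082). With quantile normalization the day 1 change was 0.64 and with reference genes 0.60, neither past the threshold.

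Lamp1, a heavily glycosylated protein of the lysosomal membrane and no protease, was at 4.66, 4.37 and 4.77 in the controls and at 5.50, 5.35 and 4.99 on day 1. It rose by 0.68 ± 0.23 (SE) on day 1 (adjusted p = 0.028), where its arrays lay above all controls. The changes on days 2 to 5 were 0.30, 0.17, 0.38 and 0.50, none past the threshold. The day 1 call ended without control replicate 4 or day 1 replicate 1 or 4 (adjusted p 0.084 to 0.11), and day 5 passed without day 5 replicate 5 (0.70, adjusted p = 0.031). With reference genes its changes on days 2, 3 and 4 were -0.09, -0.28 and -0.18.

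The scaling set the size of all these small changes. Scaling to the median or to reference genes shifts all genes of an array by 1 amount, and the median of all genes moved to between 0.37 and 0.49 when arrays were scaled to their median and to between -0.51 and -0.35 when they were scaled to the reference genes. Such shifts leave the distance between the members' median and that of all genes as it was. Quantile normalization can change it, and there the median member stood higher than the median of all genes on days 1, 2, 4 and 5 but not on day 3 (0.02 against 0.06). Of all genes called on a day, 45.3% to 48.9% were higher in the 75th percentile scale, 53.1% to 55.9% with quantiles, 70.0% to 75.8% with the median and 10.4% to 17.1% with reference genes. Of the 12 reference genes, 8 to 10 rose and 1 fell on each day in the 75th percentile scale. On the slide that held the controls and day 1 replicate 1, the difference of that array from the 3 controls was 2.29 for Ctsz, 1.43 for Ctss, 1.19 for Lgmn and 0.48 for Ctsb, and -0.82 for Ctsk. Days 2 to 5 have no array on that slide.

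**Figure D5:**
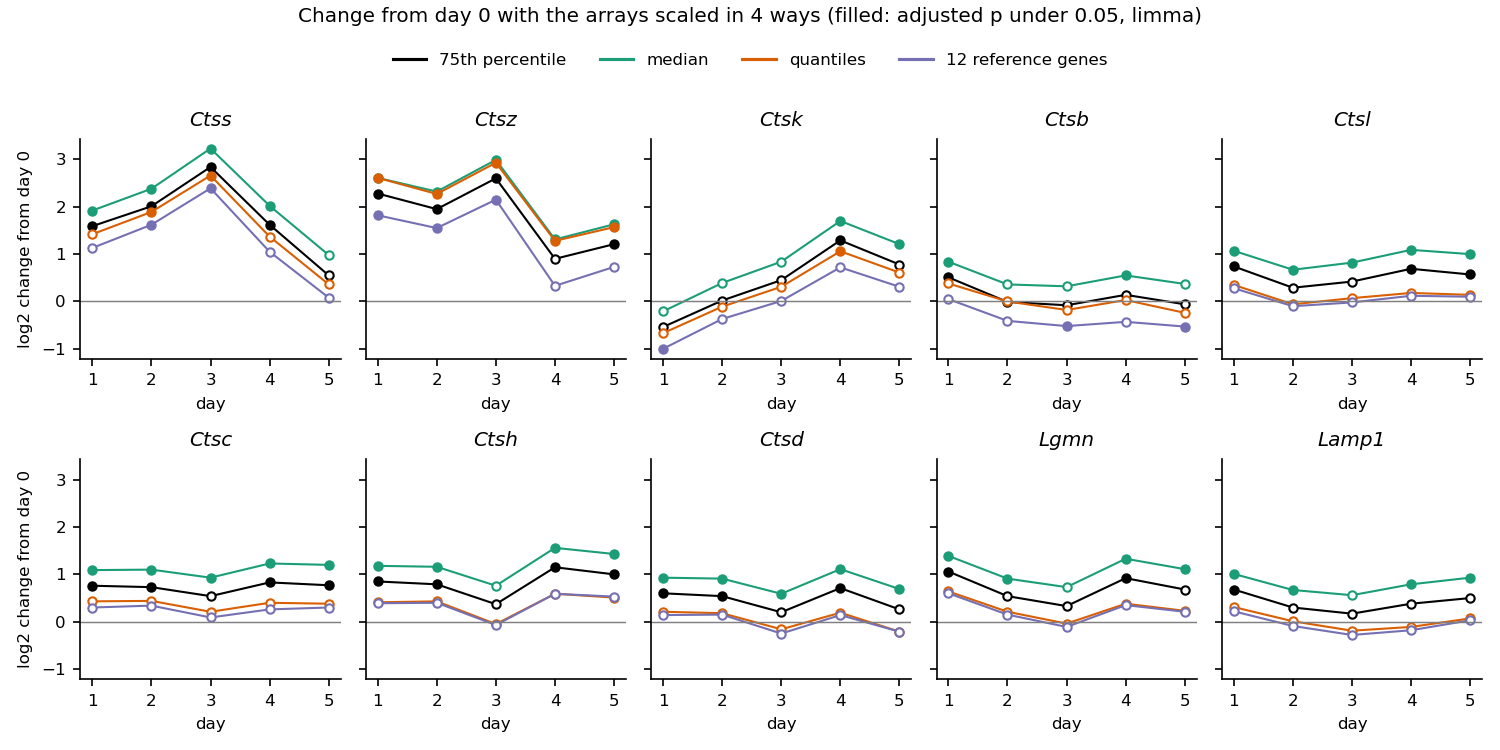
The log2 change from day 0 of each member on days 1 to 5 is plotted with arrays scaled to the 75th percentile, the median, common quantiles or 12 reference genes; filled points passed an adjusted p of 0.05 (limma). The curves shift mainly in height: Ctss and Ctsz pass on days 2 and 3 with all 4 scalings, while Ctsb, Ctsl, Ctsc, Ctsh, Ctsd, Lgmn and Lamp1 are called higher on no day with quantiles or reference genes.

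Among the arrays of 1 day, the members fell into sets that moved together. The spread within a day was uneven. The standard deviation of Ctss was 0.92 on day 4 and 1.58 on day 5, against 0.17 to 0.51 on days 0 to 3. That of Ctsz was 0.87 and 1.00 against 0.13 to 0.40, so days 4 and 5 weigh most in their within-day correlations. Ctsh, Lgmn and Lamp1 also spread most on day 5 (0.58, 0.61 and 0.39). Ctss and Ctsz had the highest within-day correlation of any pair (r = 0.94 over 18 arrays), followed by Ctsh with Lamp1 (0.91), Lgmn with Lamp1 (0.88) and Ctsh with Lgmn (0.87). Ctsk was nearer to Ctss (0.67) and Ctsz (0.60) than to the other 7. Proximal tubule markers moved with the latter: within-day deviations from their mean gave r = 0.90 for Lamp1, 0.89 for Ctsh, 0.80 for Lgmn, 0.79 for Ctsb, 0.75 for Ctsc, 0.51 for Ctsl and 0.43 for Ctsd. The corresponding values were -0.63 for Ctss, -0.62 for Ctsz and -0.68 for Ctsk. The mean log2 level of these 12 markers ran from 4.94 to 5.15 in the controls and from 4.29 to 5.57 on the other days, highest in day 4 replicate 1 and lowest in day 3 replicate 2. On days 1 to 5, 0, 0, 0, 1 and 0 of them rose and 1, 1, 1, 1 and 2 fell. Endothelial markers moved the other way from these 7 members (r = -0.82 for Ctsh to -0.49 for Ctsl). Their mean ran from 1.08 to 1.63 in the controls and from 0.01 to 1.36 later, and 3 to 5 of 10 fell on each day. Distal nephron markers (8 of 8 tested) and red cell genes (3 of 4) moved with these 7 members too, with r from 0.47 for Ctsb to 0.79 for Ctsc and from 0.34 for Ctsc to 0.75 for Ctsd. For Ctsc, Ctsl and Ctsd the distal value (0.79, 0.67 and 0.49) was above that of the proximal tubule. The same held for the red cell value of Ctsd and Ctsl (0.75 and 0.65). The distal mean ran from 2.76 to 2.91 in the controls and from 1.98 to 2.96 later, with 0 rising and 1, 2, 3, 3 and 1 falling on days 1 to 5. The red cell mean ran from 2.69 to 3.41 and from 2.07 to 3.08, with 1 gene falling on day 5 alone. The part of tubular, endothelial or red cell RNA in the members' changes was not tested.

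The genes most like each member over the 18 arrays are given as a description. Among the genes most like Ctss were Slamf9 (r = 0.973) and the complement gene C1qb (0.971). Ctsz was most like Fgd2 (0.984), Fcgr2al1 (0.982) and the macrophage lysosomal protein Cd68 (0.98). Lamp1 was most like Dab2, an endocytic adaptor (0.968), Thnsl2 (0.964) and the folate receptor Folr1 (0.961), and Ctsh like the carboxylesterase genes Ces1f (0.973) and Cesl1 (0.963) and the mitochondrial gene Pdhb (0.963). Lgmn was most like Plpp2 (0.953), Lrpprc (0.952) and Spink1l (0.95), and Ctsc like Slc16a4 (0.953), Auh (0.949) and Dram2 (0.948). Ctsd was most like Sdhb (0.949), Cox16 (0.944) and Sergef (0.932), Ctsl like Rabggta (0.923), Mrpl36 (0.918) and Atpaf2 (0.912), and Ctsb like Uap1l1 (0.899), Ass1 (0.889) and Slc25a1 (0.884).

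Later days were also set against earlier ones that shared a scan day. None of the 10 members passed for day 3 against day 1, day 5 against day 3 or day 4 against day 2 (limma, adjusted p), where 0.00431%, 0.00863% and 0.0992% of all genes were called in either direction. At an unadjusted p under 0.05 there were 5 (Ctsb, Ctsd, Ctsk, Lamp1 and Lgmn), 2 (Ctss and Ctsz) and 2 (Ctsk and Ctsz) members, against 13.7%, 13.2% and 13.9% of all genes. From day 3 to day 5 the difference was -2.28 for Ctss (adjusted p = 0.16) and -1.39 for Ctsz (adjusted p = 0.22). Without day 5 replicate 5 these became -3.19 (adjusted p = 0.0044) and -1.97 (adjusted p = 0.017), and the number of all genes called went from 2 to 918. From day 1 to day 3 the difference was 1.25 for Ctss (adjusted p = 0.37), 0.99 for Ctsk (adjusted p = 0.24) and -0.73 for Lgmn (adjusted p = 0.28).

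Other genes of the lysosome were counted from lists, to be read against the 19.2% to 25.6% of all genes called higher and the 20.7% to 26.7% called lower. Of 4 other cathepsins tested (of 12 listed), 1, 2, 2, 0 and 1 rose on days 1 to 5 and none fell. These were the aspartic cathepsin Ctse, with 2.79 ± 0.48 (SE) on day 3 (adjusted p = 0.00077), and on days 2 and 3 Ctsw (1.83 and 2.22). Ctsw, a cathepsin of cytotoxic lymphocytes, was chosen after its values were seen. It was well above background on 2 of the 3 controls. Of 5 other lysosomal peptidases, 3, 2, 2, 3 and 1 rose and 0, 1, 1, 1 and 1 fell. The carboxypeptidase Scpep1 rose on all 5 days (0.76 to 1.54), Prcp rose on days 1 to 4 (0.55 to 0.83), and the tripeptidyl peptidase Tpp1 fell on days 2 to 5 (-1.26 to -1.02). With reference genes Scpep1 passed on 2 days and Prcp on none.

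With the repaired background correction and its offset of 50, the highest change of Ctse was 1.69.

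The inhibitors of cysteine proteases were tested for 8 genes, of which 4, 3, 4, 1 and 2 rose and 1 fell on each day. Cystatin F (Cst7), an inhibitor made by leukocytes that acts on cathepsin C, was 2.79 ± 0.47 (SE) higher on day 1 (adjusted p = 0.0021) and 2.67 higher on day 3 (adjusted p = 0.00084), but at most 0.89 with the offset of 50. Cystatin B (Cstb), the inhibitor of the cytosol, rose on all 5 days (0.59 to 0.96). Serpinb9, a serpin and not a cystatin, rose on days 1 to 3 (1.47 to 1.84), and its action on cathepsins was not examined here. Cst11 fell on all 5 days with each scaling (adjusted p 0.00036 to 0.0054). It was well above background on all 3 controls and on no array of days 2 and 4, where it was at least 12.5-fold and 13.8-fold lower, and on 1 array of each other day. With the offset of 50 its changes were -2.21 to -1.58. With reference genes Cstb passed on 2 days and Serpinb9 on 1.

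Of 30 acid hydrolases, 9, 4, 7, 6 and 5 rose and 4, 4, 5, 6 and 5 fell. The acid ceramidase Asah1 rose on all 5 days with each of the 4 scalings (0.80 to 1.19 in the 75th percentile scale), and the iduronate sulfatase Ids fell on all 5 with each (-2.49 to -1.97). Aga rose on all 5 days (0.70 to 0.96) and Idua fell on all 5 (-1.07 to -0.52), Aga with 3 calls under reference genes and Idua with 2 under quantiles or the median. Of 19 lysosomal membrane genes, 6, 7, 6, 5 and 5 rose and 1, 5, 4, 3 and 4 fell. The lysosomal protein Laptm4a rose on all 5 days with each scaling (0.96 to 1.53), Laptm5 of leukocytes on days 1 to 3 (1.60 to 2.20), Cd68 on days 1 to 3 (2.31 to 2.89) and the phagosomal metal transporter Slc11a1 on days 2 and 3 (1.42 and 1.97), with 1 call under reference genes and none with the offset of 50.

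Of 19 subunits of the V-ATPase, the proton pump that acidifies the lysosome, 7, 5, 4, 7 and 8 rose and 1, 2, 3, 2 and 1 fell. Atp6v0e1 and Atp6v1f rose on all 5 days (0.60 to 1.07 and 0.65 to 1.04), with 2 and 1 calls under reference genes. Atp6v0a1 fell on all 5 days with each scaling (-2.04 to -1.52), and Atp6v1b1, the subunit of intercalated cells, fell on days 2, 3 and 4 (-1.81 to -1.44). Of 11 sorting genes, 2, 1, 1, 2 and 2 rose and 1 fell on each day: the retromer subunit Vps35 rose on all 5 days (0.86 to 1.35) and Cln8 fell on all 5 (-2.01 to -1.64), both with each scaling, and the mannose 6-phosphate receptor Igf2r rose on days 1, 4 and 5 (0.83 to 1.22), with 1 call each under quantiles and reference genes. Of the 4 genes of the TFEB family, which drives lysosomal genes, Tfe3 fell on all 5 days (-1.10 to -0.76; on 2 with quantiles), Tfec rose on days 2 and 4 (1.02 and 1.72; on 1 with reference genes), and Tfeb rose on day 1 by 0.54 and fell on 2 days with reference genes.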

How the data were processed

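Per the file headers, the authors made the intensity values with Agilent Feature Extraction 10.7.3.1 (processed signal: background-subtracted and detrended within the array, dim spots given a surrogate value, no scaling between arrays). The submitters also deposited a table in log2 whose making is not given in the sources used here; it served as an alternative within days 0, 2 and 4 or 1, 3 and 5. The processed intensity was converted to log2, less the array's 75th percentile, without control spots and outlier flags. Probes well above background on all arrays of at least 1 group entered (27834 of 41012), and each gene took its brightest probe over the 18 arrays. Symbols were updated through the RefSeq table by accession or symbol. limma 3.58.1 (R 4.3.3) fitted 6 groups of 3 arrays without covariates; p-values were Benjamini-Hochberg adjusted over all 23186 genes within a contrast, with 0.05 as threshold. The code was tested on simulated data. The members, gene lists and tests were chosen with earlier results of these data known. Text names all 10 members, up to 4 genes per list with the largest mean change among those past the F-test, and the 3 genes most like each member, 1 of which is not reported here; others are marked. Where a gene was well above background on no array of a day, the fold is a bound ("at least"), against the higher, per array, of its own signal and the lowest signal of any probe well above background. Correlations are Pearson's, given as descriptions.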

Additional observations from a re-analysis of the deposited data

How the results depend on the processing

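Counts of members called higher on days 1 to 5 were 9, 5, 2, 7 and 4. They were 0 on day 1, 1 on day 2, 1 on day 4 and 0 on day 5 with normexp, which gave 29, 1485, 1544, 2604 and 56 called genes in all against 9265, 10650, 11067, 12119 and 10263. With local backgrounds over 1000 set to the array's median first, chosen after seeing the data, the counts were 9, 6, 4, 8 and 6. All called genes then numbered 11071, 14165, 12643, 15137 and 9429. Quantile normalization gave 1, 2, 2 and 1 on days 1, 2, 4 and 5, and reference genes 1, 2, 0 and 0. Scaling to the median gave 8, 5 and 8 on days 2, 3 and 5. Fits of only the 2 groups gave 3, 3 and 0 on days 1, 2 and 5 (3306 and 4813 genes in all on days 1 and 5), and no filter gave 2 on day 5. Slide as a fixed block, which leaves 1 day 1 array beside the controls, gave 0 on days 1, 3 and 5 (0, 1 and 1 genes in all). The value table gave 2 and 3 on days 2 and 4. Leaving out 1 array gave 2 to 8, 1 to 5, 2 to 3, 3 to 7 and 0 to 5, and 0 to 2 for day 5 against day 3; without control replicate 4, 4617 and 6515 genes were called in all on days 1 and 5. Without day 1 replicate 1 or 4, 5391 and 4891 were called in all on day 1. The F-test passed 6 members, 3 with normexp (854 genes in all against 12305), 10 repaired, 10 with the median and 4 to 8 without 1 array. Replicate numbers did not pair the arrays (27 same-number pairs, median r -0.02, lowest -0.38); with the replicate block the counts were 3, 2 and 2 on days 1, 2 and 4 (7817 genes in all on day 4) and 3 for the F-test (6876 genes). Over single members, no alternative reversed a call. Of 1390 values 1174 kept their call or lack of one, 183 lost a call and 33 gained one. A value that changed sign but was called in neither fit counts among the 1174. The 1390 include changes not called in the main fit, which had no call to lose. Counts over all genes between later and earlier days were 1, 2 and 23 and ran from 0 to 918 over the alternatives. The causes were not tested. With 3 arrays a day and log2 standard errors of 0.17 to 0.60, changes of the size seen in Ctsb or Lamp1 lie near what the fit can call.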

Other observations

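Genes known from osteoclasts and from antigen presentation, cell settings in which cathepsins K and S are best known, were also measured. Of 7 osteoclast-type genes tested, 4, 3, 2, 3 and 1 rose and 2, 2, 1, 1 and 1 fell on days 1 to 5. The macrophage elastase Mmp12 was 5.72 ± 1.00 (SE) higher on day 3 (limma, adjusted p = 8e-04). The glycoprotein Gpnmb was 6.10 ± 0.90 higher on day 1 (limma, adjusted p = 0.0013). Their highest changes were 2.58 and 4.08 under the repaired background correction with its offset of 50. Mmp12 was well above background on 1 of the 3 controls. The integrin subunit Itgb3 fell on all 5 days (adjusted p 0.00026 to 0.02). It was well above background on no array of days 1, 3, 4 and 5, where it was at least 2.15-fold to 3.43-fold lower. With the offset of 50 its changes were -1.13 to -0.64. Acp5, the tartrate-resistant acid phosphatase of osteoclasts, did not pass on any day (0.24 to 0.45; chosen after its values were seen). Osteopontin (Spp1) rose on day 1 by 1.87 (adjusted p = 0.01). Of 7 genes of MHC class II presentation, 2, 4, 6, 5 and 2 rose and 0, 0, 0, 0 and 1 fell. RT1-DMa rose on all 5 days (0.87 to 1.99) and the lysosomal thiol reductase Ifi30 on all 5 (0.74 to 1.26), with 2 and 4 calls under reference genes. RT1-Da rose on days 2, 3 and 4 (1.49 to 2.22), with 1 call under reference genes. The transactivator Ciita rose on days 2 and 4, but on 0 days with the offset of 50. With that offset its changes were -0.44 to -0.20, and it was called lower on 2 days. Its lower call on day 5 (adjusted p = 0.04) is against a day with no array well above background (at least 1.2-fold), and it fell on 0 days with quantiles or the median.

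Markers of other cell types were counted in the same way. Of 10 T, B and NK cell markers tested (of 14), 3, 8, 9, 0 and 1 rose. Of 4 neutrophil markers tested (of 12), 3, 1, 0, 0 and 3 rose and 1 fell on each day; the 8 others, among them Elane and Mpo, were not well above background on all arrays of any day. Of 5 mast cell genes tested (of 8), 1, 3, 3, 0 and 0 rose and 2 fell on each day. Of the 5 mast cell genes 2 were well above background on all 3 controls. Within-day deviations of Ctss and Ctsz gave r = 0.65 and 0.64 with the lymphocyte mean and 0.74 and 0.72 with the mast cell mean over 18 arrays.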
